A study of Mus musculus with 6 samples.

Results

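Cochaperones, a partner factor, a coactivator and targets of the progesterone receptor were followed in mouse endometrium as a set of 10 genes. The 10 genes Fkbp4, Fkbp5, Gata2, Zbtb16, Sgk1, Il13ra2, Calca, Lrp2, Ncoa2 and Per1 were taken by symbol from a table of 44788 gene symbols, and all 10 were found. Of these, 8 had enough reads to be tested, as had 16581 genes of the table, and Il13ra2 and Calca did not.

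Progesterone prepares the uterus for implantation by binding the progesterone receptor, a transcription factor that is held ready for hormone by the HSP90 chaperone machine. FKBP4 (FKBP52) and FKBP5 (FKBP51) are cochaperones that take turns in that complex: the first promotes receptor activity, and mice without it are infertile because the uterus does not become receptive, whereas the second dampens steroid receptors and is itself induced by them. Gata2 acts beside the receptor in mouse endometrium, Ncoa2 encodes the coactivator SRC-2, and Lrp2, Il13ra2, Calca, Zbtb16, Sgk1 and Per1 have been described as genes that progestins induce.

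The study used outbred ICR mice with adenomyosis, in which endometrial glands and stroma grow into the uterine muscle. In the agonist group, females that had received 2.7 µmol/kg tamoxifen by mouth on days 2 to 5 of life were given, after 75 days, the GnRH agonist Decapeptyl (triptorelin; spelled Decapetyl in the labels) at 1.5 µg per 100 g per day by intraperitoneal injection on days 3 to 9 of estrus. In the no-agonist group, females with the same neonatal tamoxifen received solvent alone, so no group lacked tamoxifen. Each group began with 8 mice born to 5 dams in all. Mating followed after 4 weeks, and on day 4 of pregnancy, between 19:00 and 20:00, the mice were killed and their endometrium scraped off for RNA, from uteri that showed adenomyosis on histology. Sequencing covered 3 libraries of each group. Library numbers name libraries within a group and pair none across groups. Which mouse or litter gave which library is not stated, so p-values measure the spread between libraries, which may be technical.

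Totals were 11720958 to 14104266 counts per library with agonist and 12053447 to 13137470 without. Markers of epithelium, stroma and smooth muscle were all present, the last with summed levels of 2937 to 11826 CPM (reads per 1000000 counted, with TMM scaling) in agonist and 7590 to 19261 CPM in no-agonist libraries. The 8 epithelial markers summed to 3837 to 5271 CPM in agonist libraries and 6292 to 11263 CPM in no-agonist libraries. Taken singly, 2 of the 8 were separated between groups. The 8 immediate early genes, which switch on within minutes of a stimulus, stood apart in 2 libraries, with 2011 CPM in agonist library 1 and 2452 CPM in no-agonist library 3 against 194 to 463 CPM in the other agonist and 202 to 251 CPM in the other no-agonist libraries.

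None of the 8 tested genes passed an adjusted p of 0.05 in edgeR's quasi-likelihood test, as was true of 0 of 16581 genes higher (0%) and 0 lower (0%). Lrp2 was the 1 gene of the 8 at an unadjusted p under 0.05 toward higher levels, where 691 genes (4.17%) of the whole table stood, and 0 of the 8 did so toward lower levels, against 844 genes (5.09%), which makes 9.26% in either direction. Libraries of the groups did not overlap for Lrp2 and Ncoa2, both higher with agonist, where 6.94% of all tested genes were separated in that direction and 7.61% in the other, 14.5% in all. DESeq2, at the same adjusted threshold, called Lrp2 higher and none of the other 7, beside 0.87% of genes called higher and 1.56% lower, 2.43% in all. Lrp2 passed the read filter only through its agonist libraries, where it was high, so its values here are description and not support. Of the 8 genes, 5 lay higher and 3 lower, and their median log2 fold change was 0.14, beside 0.02 over all genes tested. In bulk tissue fewer cells of a type and less RNA per cell cannot be told apart.

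**Figure D1:**
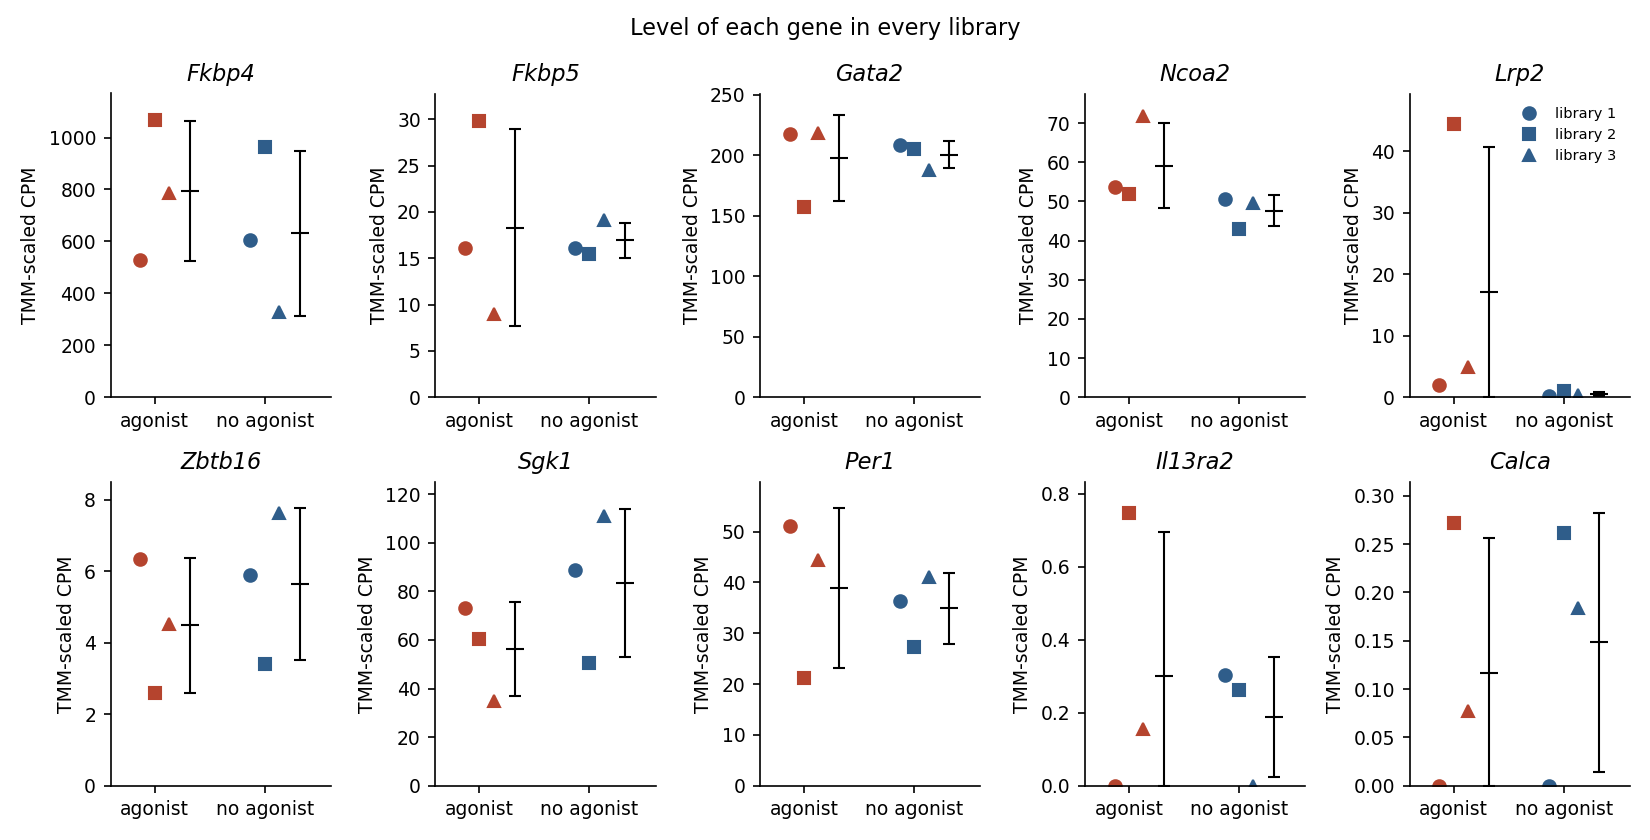
TMM-scaled CPM of each of the 10 genes in every library (points, 1 marker shape per library number), with agonist libraries left of no-agonist libraries and mean ± SD of 3 libraries beside them (SD bars stop at 0). Lrp2 stands at 44.4 CPM in agonist library 2 and at or under 0.957 CPM in the 3 no-agonist libraries, and Gata2 spans 157 to 218 CPM over all 6.

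Levels can be ranked between genes only per length, here as CPM per kilobase of merged exons (GENCODE M21, GRCm38); the gene models used for counting may differ. Fkbp4 led with 284 ± 96.4 CPM per kilobase in agonist and 226 ± 114 in no-agonist libraries (mean ± SD, n = 3 each, as for all means that follow). Gata2 came next with 36.6 ± 6.54 in agonist and 37.1 ± 2.03 CPM per kilobase in no-agonist libraries, and neither gene's 6 libraries overlapped those of the gene ranked below it. Sgk1 measured 11.5 ± 3.98 and 17.0 ± 6.23 CPM per kilobase with and without agonist, Per1 6.91 ± 2.80 and 6.20 ± 1.25, Ncoa2 3.78 ± 0.698 and 3.05 ± 0.261, and Fkbp5 1.93 ± 1.12 and 1.79 ± 0.203. Zbtb16 measured 0.849 ± 0.356 and 1.07 ± 0.402 CPM per kilobase with and without agonist. From Sgk1 to Zbtb16 each gene's range over 6 libraries overlapped that of its neighbour. Lrp2 ranked above Zbtb16 by mean in agonist libraries, at 1.02 ± 1.42 CPM per kilobase, and below all others in no-agonist libraries, at 0.0310 ± 0.0232. Agonist library 2 alone gave that rank, with 2.66 CPM per kilobase for Lrp2 and 0.489 for Zbtb16, whereas Lrp2 lay below Zbtb16 in agonist libraries 1 (0.115 and 1.20) and 3 (0.290 and 0.859).

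Pgr, the progesterone receptor itself, measured 67.2, 94.9 and 157 CPM in agonist libraries, against 88.7, 110 and 152 CPM in no-agonist libraries (log2 fold change -0.14 ± 0.34 SE, adjusted p = 0.946). The groups overlapped over most of their range. The glucocorticoid receptor Nr3c1, which binds the same DNA elements, measured 47.2, 30.9 and 59.0 CPM in agonist and 39.1, 28.1 and 34.8 CPM in no-agonist libraries (log2 fold change 0.43 ± 0.27). Esr1, the estrogen receptor, had a log2 fold change of 0.12 ± 0.20. Of the 8 steroid receptor and membrane progesterone-binding genes listed, all were tested, 6 lay higher and 2 lower, and 0 reached an unadjusted p under 0.05. Pgrmc1, which encodes a membrane heme- and steroid-associated protein, had the smallest p, with 99.2, 129 and 226 CPM in agonist and 121, 82.7 and 94.7 CPM in no-agonist libraries.

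Fkbp4 (ENSMUSG00000030357; chromosome 6, 128429735 to 128438677, minus strand, GRCm38) measured 527, 1066 and 787 CPM in agonist libraries 1 to 3, against 604, 962 and 329 CPM in no-agonist libraries 1 to 3. Agonist library 2 was the highest and no-agonist library 3 the lowest, and the other 4 libraries lay in the range that the groups shared. The log2 fold change was 0.33 ± 0.43 SE (95% interval -0.67 to 1.33, adjusted p = 0.876). It was 0.03 without no-agonist library 3 and 0.77 without no-agonist library 2, and the 6 libraries spanned 3.24-fold.

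Several other genes of the HSP90 cycle had a library order like that of Fkbp4. Stip1, the organizer that links HSP70 to HSP90, measured 156, 323 and 220 CPM in agonist libraries and 205, 304 and 124 CPM in no-agonist libraries, the same ranking of libraries as Fkbp4. Of the 18 cycle genes, all tested, 7 lay higher and 11 lower with agonist, 0 reached an unadjusted p under 0.05, and the median log2 fold change was -0.03. Genes measured in the same library share its depth scaling and its tissue makeup, and that makeup differed between libraries. Over the 6 libraries 5 of the 18 had a Pearson r with Fkbp4 above 0.8, where 7.22% of all other tested genes did. These were Stip1 (0.98), St13 (0.93), Hsp90aa1 (0.89), Ahsa1 (0.85) and Fkbpl (0.85), and they are given as a description of 6 points. Across the 18, r had a median of 0.67, 16 were positive, and Unc45a (-0.79) and Stub1 (-0.50) ran the other way. The cochaperone p23, Ptges3, which stabilizes hormone-binding receptor, measured 59.0, 72.1 and 55.9 CPM in agonist and 60.5, 71.3 and 57.0 CPM in no-agonist libraries, with a log2 fold change of -0.01 ± 0.19. Hsp90ab1, the constitutive HSP90, had a log2 fold change of 0.03 ± 0.32, and Hsp90aa1, the inducible one, -0.01 ± 0.34. The genes with the smallest p in that list were Dnajb1, an HSP40, at 99.6, 94.0 and 99.2 CPM in agonist and 71.3, 84.3 and 80.2 CPM in no-agonist libraries (adjusted p = 0.630), then Stub1 and St13.

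**Figure D2:**
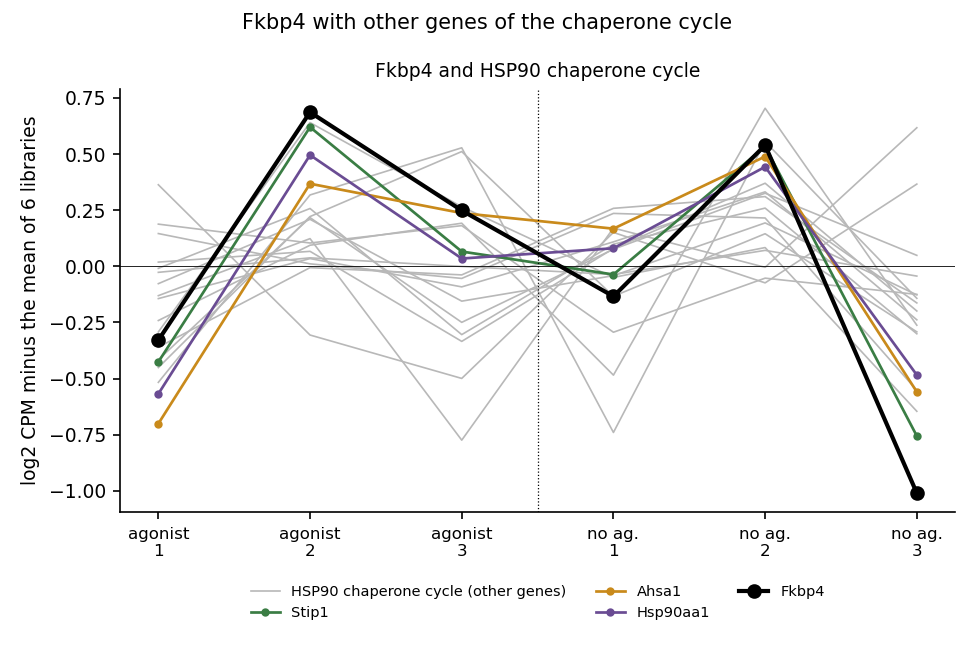
Log2 CPM minus the gene's mean over 6 libraries (y axis) in each library (x axis; agonist left of the dotted line, no agonist right) for Fkbp4 (black) and 18 genes of the HSP90 chaperone cycle. Fkbp4, Stip1, Ahsa1 and Hsp90aa1 are highest in agonist library 2 and no-agonist library 2 and low in agonist library 1 and no-agonist library 3.

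Fkbp5 (ENSMUSG00000024222; chromosome 17, 28399094 to 28517527, minus strand) measured 16.1, 29.8 and 8.93 CPM in agonist libraries, against 16.2, 15.5 and 19.1 CPM in no-agonist libraries. The highest and the lowest of the 6 values were both agonist libraries, and the no-agonist libraries lay between them. Its log2 fold change was 0.11 ± 0.42 SE (95% interval -0.86 to 1.09, adjusted p = 0.967) and became -0.43 without agonist library 2. Within a library, Fkbp5 gave 30.6, 28.0 and 11.3 counts per 1000 counts of Fkbp4 with agonist, against 26.8, 16.1 and 58.1 without. The log2 ratio averaged -5.55 ± 0.79 with agonist and -5.10 ± 0.93 without, a difference of -0.46 (p = 0.6 by an exact permutation test, two-sided, which with 3 against 3 libraries cannot go below 0.1). Without no-agonist library 3 the difference was 0.04. Of 12 other FKBP genes 11 were tested, 5 lay higher and 6 lower, and Fkbp11, an FKBP of the endoplasmic reticulum, was the 1 gene at an unadjusted p under 0.05, with 14.6, 22.6 and 22.5 CPM in agonist and 32.5, 70.0 and 22.5 CPM in no-agonist libraries (adjusted p = 0.512). Fkbp15 and Fkbp3 followed. Over all tested genes 9.26% reached an unadjusted p under 0.05.

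Ncoa2 (ENSMUSG00000005886; chromosome 1, 13139105 to 13374083, minus strand), the coactivator that mice need in the uterus for decidualization, measured 53.8, 52.0 and 71.7 CPM in agonist libraries, against 50.5, 43.0 and 49.5 CPM in no-agonist libraries. All 3 agonist libraries lay above the others, with little room between agonist library 2 and no-agonist library 1. A log2 fold change of 0.31 ± 0.20 SE (95% interval -0.14 to 0.77, adjusted p = 0.684) was fitted, and 0.15 without agonist library 3. Its relatives Ncoa1 (24.0, 27.4 and 33.4 CPM in agonist and 28.0, 25.1 and 23.9 CPM in no-agonist libraries) and Ncoa3 (log2 fold change 0.07 ± 0.26) overlapped between groups. Among 15 coactivators and corepressors, all tested, 11 lay higher and 4 lower, 0 reached an unadjusted p under 0.05, and the median log2 fold change was 0.14. The smallest p belonged to Ncoa7, with 77.2 CPM in no-agonist library 3 and 20.8 to 27.9 CPM in agonist libraries (adjusted p = 0.686), and Nrip1 was also among the 3 smallest. The groups nevertheless overlapped for Ncoa7, as for every gene of that list.

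Gata2 (ENSMUSG00000015053; chromosome 6, 88193891 to 88207032, plus strand), a zinc finger factor that sustains progesterone signalling in mouse uterus, was the steadiest of the 8 genes. It measured 218, 157 and 218 CPM in agonist libraries, against 209, 205 and 188 CPM in no-agonist libraries, a 1.39-fold range in all. Agonist library 2 was the lowest. The log2 fold change was -0.02 ± 0.21 SE, and its 95% interval of -0.50 to 0.46 leaves room for changes in either direction (adjusted p = 0.992). Among 9 GATA factors and partners, 6 were tested, 4 lay higher and 2 lower, and 0 reached an unadjusted p under 0.05. Tal1, a blood and endothelial factor, measured 4.33, 3.33 and 3.77 CPM in agonist and 1.96, 2.09 and 2.57 CPM in no-agonist libraries (adjusted p = 0.570), followed by Zfpm1 and Gata3.

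Lrp2 (ENSMUSG00000027070; chromosome 2, 69424340 to 69586065, minus strand) encodes megalin, the endocytic receptor of absorptive epithelia that takes up vitamin carriers and lipoproteins. Its 6 libraries held 24, 654 and 63 reads with agonist and 3, 11 and 4 reads without. In CPM these were 1.93, 44.4 and 4.85 in agonist libraries, against 0.226, 0.957 and 0.367 in no-agonist libraries. Lrp2 passed the filter for testing through its agonist libraries, since no-agonist libraries 1 and 3, at 3 and 4 reads, lay under 10 counts. The groups did not overlap, but 2 of 3 agonist values were under 5 CPM, and the exact 95% Poisson intervals of the nearest libraries met (1.23 to 2.87 CPM in agonist library 1 and 0.478 to 1.71 CPM in no-agonist library 2). For Lrp2 the fitted log2 fold change was 5.03 ± 1.3 SE (95% interval 2.02 to 8.05, adjusted p = 0.328), a 32.8-fold difference. Without agonist library 2 it was 2.70 (adjusted p = 0.514). DESeq2 gave an adjusted p = 1.94e-04 and edgeR's likelihood ratio test 0.00693, and over all alternatives the adjusted p ran to 0.628.

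Of 15 genes listed as partners and relatives of megalin, 12 were tested, 4 lay higher and 8 lower, and 0 reached an unadjusted p under 0.05. Cubn (cubilin) and Amn (amnionless), which form the receptor complex that megalin internalizes, had 7 and 16 reads over all 6 libraries. Dab2, the endocytic adaptor, measured 33.1, 35.4 and 44 CPM in agonist and 43.9, 23.4 and 29.8 CPM in no-agonist libraries. Clu (clusterin), a ligand of megalin, was also among the genes of that list with the smallest p.

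Markers of uterine glands were high in some of the same libraries. Their 8 genes summed to 19.5, 192 and 182 CPM in agonist libraries, against 26.4, 46.5 and 21.7 CPM in no-agonist libraries, with 4 of 8 tested. Of the untested, Spink3, Prss28 and Ttr had reads in agonist library 2 alone, and Prss29 in agonist libraries 1 and 2 alone. The gland chemokine Cxcl15 measured 1.36, 82.2 and 69.8 CPM in agonist and 0.755, 1.04 and 0 CPM in no-agonist libraries. Wfdc3 reached 18.1 CPM in agonist library 2, but was higher in no-agonist library 2 than in agonist libraries 1 and 3. Foxa2, the transcription factor that defines glands, measured 7.86, 15.2 and 20.5 CPM in agonist and 12.4, 18.5 and 10.7 CPM in no-agonist libraries. Aldh1a1 measured 8.66, 72.0 and 90.2 CPM in agonist and 13.1, 25.1 and 10.8 CPM in no-agonist libraries. The 5 oviduct markers summed to 178, 19.1 and 16.5 CPM in agonist libraries, against 4.38, 7.57 and 6.43 CPM in no-agonist libraries, the highest being Ovgp1 in agonist library 1, where Lrp2 was at 1.93 CPM. Embryo and yolk sac endoderm also make megalin. Of 10 markers of these, Pou5f1, Nanog, Cdx2 and Apoa4 had 0 reads in every library, which at a floor of 3 reads allows up to 0.204 to 0.276 CPM. The 2 that could be tested, Elf5 and Tfap2c, both lay higher, and Elf5 measured 0.562, 3.87 and 1.62 CPM in agonist and 0.226, 0.609 and 1.01 CPM in no-agonist libraries (adjusted p = 0.571), highest where Lrp2 was. The 10 markers summed to 5.05, 8.56 and 10.8 CPM in agonist libraries, against 4.75 to 6.0 CPM in no-agonist libraries. That sum was thus highest in agonist library 3, whereas Lrp2 was highest in agonist library 2. Eomes, which was untested, also peaked in agonist library 3, at 3.39 CPM against 1.15 CPM in agonist library 2. Afp and Amn, likewise untested and with few reads, had lower means with agonist than without. The part of glands, oviduct and embryonic cells in the Lrp2 difference was not tested.

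**Figure D3:**
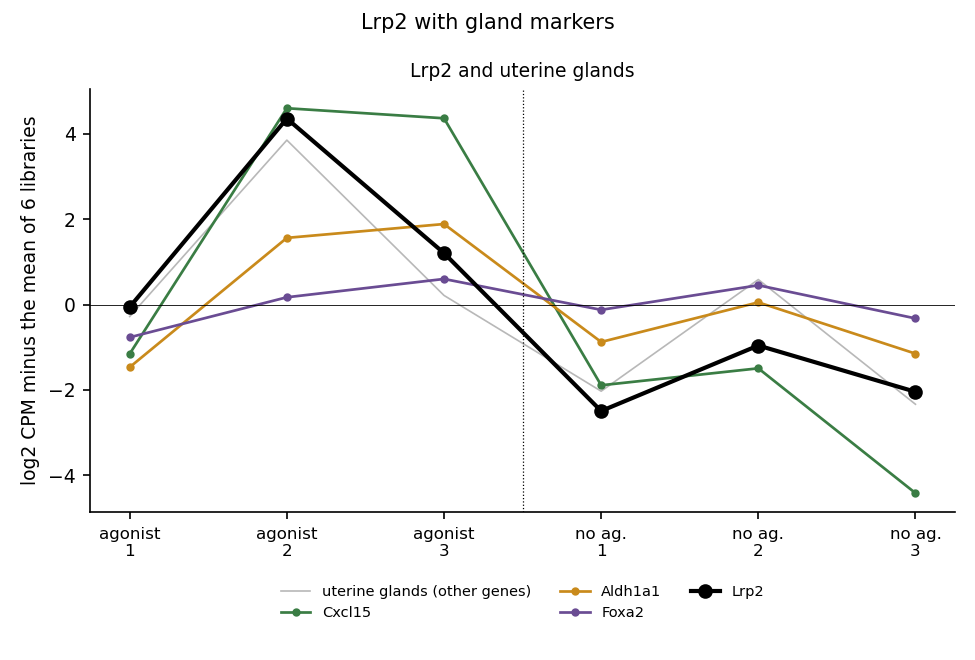
Log2 CPM minus the gene's mean over 6 libraries (y axis) by library (x axis; agonist left of the dotted line, no agonist right) for Lrp2 (black) and the 4 tested gland markers. Lrp2 and Cxcl15 both peak in agonist library 2 (44.4 and 82.2 CPM), while Cxcl15 stays high in agonist library 3, where Lrp2 is at 4.85 CPM.

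Il13ra2 (ENSMUSG00000031289; chromosome X, 147383476 to 147429192, minus strand), the decoy receptor of interleukin-13, had 0, 11 and 2 reads in agonist libraries and 4, 3 and 0 reads in no-agonist libraries, 20 in all. The value of 0.747 CPM in agonist library 2 (exact 95% Poisson interval 0.373 to 1.34) was the highest, and no difference between groups was detectable at this depth. The cytokines Il4 and Il13 had 0 reads throughout. Il13ra1, the signalling chain, measured 48.1, 50 and 30.2 CPM in agonist and 51.9, 51.3 and 90.7 CPM in no-agonist libraries (adjusted p = 0.609). Of 12 genes of this cytokine system 9 were tested, and 2 lay higher and 7 lower. Of these, 1 of the higher and 2 of the lower reached an unadjusted p under 0.05, where 4.17% and 5.09% of all tested genes did. Lower were the arginase Arg1, at 37.1, 11.1 and 3.69 CPM in agonist and 135, 165 and 980 CPM in no-agonist libraries (log2 fold change -4.63 ± 1.11, adjusted p = 0.304), and the shared receptor chain Il4ra, at 189, 130 and 92.8 CPM in agonist and 215, 181 and 420 CPM in no-agonist libraries. Higher was Il2rg, the common gamma chain, at 10.5, 10.4 and 9.00 CPM in agonist and 7.02, 3.74 and 5.79 CPM in no-agonist libraries. Arg1 and Il4ra are made by macrophages among others. The 7 macrophage markers, all tested, summed to 934, 833 and 382 CPM in agonist and 1582, 1031 and 2821 CPM in no-agonist libraries. Cd14 made up much of these sums, at 595, 517 and 195 CPM in agonist and 806, 702 and 2002 CPM in no-agonist libraries. All 7 markers lay lower with agonist, and 3 were separated between groups. Csf1r, which overlapped, was lowest of the 6 libraries in no-agonist library 2, at 7.83 CPM. The part of macrophages in the Arg1 and Il4ra levels was not tested. The 8 NK and T cell markers, of which 7 were tested and all 7 lay higher, summed to 22.3, 35.0 and 47.4 CPM in agonist and 13.4, 8.61 and 18.2 CPM in no-agonist libraries, which do not overlap, and their part in the Il2rg level was not tested.

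Calca (ENSMUSG00000030669; chromosome 7, 114631478 to 114636357, minus strand), the source of calcitonin and of CGRP and, in rat, a progesterone-induced signal of the preimplantation uterus, was near absent. It had 0, 4 and 1 reads in agonist libraries and 0, 3 and 2 reads in no-agonist libraries. A single library with 0 reads allows up to 0.241 CPM with agonist and 0.226 CPM without. The calcitonin receptor Calcr also had 0 reads in all 6 libraries, whereas Calcrl, the receptor for CGRP and adrenomedullin, measured 13.2, 13 and 19.5 CPM in agonist and 11.4, 7.22 and 18 CPM in no-agonist libraries. Of 9 genes of the family 5 were tested, 2 lay higher and 3 lower, and 0 reached an unadjusted p under 0.05. Its accessory protein Ramp3 measured 6.5, 174 and 105 CPM in agonist and 210, 141 and 13.8 CPM in no-agonist libraries, lowest in agonist library 1 and no-agonist library 3, the libraries highest in immediate early genes. Adm, the ligand adrenomedullin, had the smallest p (adjusted p = 0.748).

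Sgk1, Per1, Zbtb16 and Fkbp5 are also induced by glucocorticoids through the element that the progesterone and glucocorticoid receptors share. RefSeq start sites on GRCm38.p6 were given for 8 of the 10 genes, in 15 windows of 250 bases before to 50 bases after a start. Zbtb16 and Ncoa2 had no window and were not searched. The palindrome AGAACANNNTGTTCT was found in 1 of the 15 and in 3 of 32851 windows in all (0.00913%). Its hexamer TGTTCT, searched on both strands and also part of the palindrome, was in 3 of 15 and in 19.0% of all windows. All 3 belonged to Sgk1, which supplied 6 of the 15 windows. No other gene with a window had a match to the hexamer, Per1 and Fkbp5 included. The E-box CACGTG, bound by clock factors, was in 3 of 15 and in 7.15% of all windows. The window with the palindrome belonged to Sgk1, at the fifth of its 6 start sites (chr10:21993640-21993939, plus strand). It is shown with the windows of Per1 (chr11:69098699-69098998, plus strand) and Fkbp5 (chr17:28486100-28486399, minus strand), which hold an E-box, and of Lrp2 (chr2:69585980-69586279, minus strand), the gene with the largest difference, which holds none of these motifs. Capitals mark matches, and in Sgk1 the E-box and a hexamer overlap.
Sgk1: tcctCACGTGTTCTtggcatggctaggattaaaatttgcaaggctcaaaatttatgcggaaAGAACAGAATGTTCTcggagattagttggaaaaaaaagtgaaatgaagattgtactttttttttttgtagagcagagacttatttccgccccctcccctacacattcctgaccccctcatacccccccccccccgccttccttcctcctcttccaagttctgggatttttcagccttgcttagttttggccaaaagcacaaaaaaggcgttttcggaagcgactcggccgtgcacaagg
Per1: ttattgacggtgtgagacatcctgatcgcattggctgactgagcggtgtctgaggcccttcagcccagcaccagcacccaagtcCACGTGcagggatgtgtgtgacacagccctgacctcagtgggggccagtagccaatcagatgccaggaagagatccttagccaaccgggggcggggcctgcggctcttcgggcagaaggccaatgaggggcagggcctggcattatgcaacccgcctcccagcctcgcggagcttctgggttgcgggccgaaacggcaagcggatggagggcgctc
Fkbp5: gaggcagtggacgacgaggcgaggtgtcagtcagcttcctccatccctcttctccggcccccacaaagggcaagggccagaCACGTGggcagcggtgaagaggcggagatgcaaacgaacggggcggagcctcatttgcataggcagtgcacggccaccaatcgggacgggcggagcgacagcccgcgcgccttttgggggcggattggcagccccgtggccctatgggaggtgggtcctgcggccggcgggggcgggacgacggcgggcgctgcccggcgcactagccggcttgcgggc
Lrp2: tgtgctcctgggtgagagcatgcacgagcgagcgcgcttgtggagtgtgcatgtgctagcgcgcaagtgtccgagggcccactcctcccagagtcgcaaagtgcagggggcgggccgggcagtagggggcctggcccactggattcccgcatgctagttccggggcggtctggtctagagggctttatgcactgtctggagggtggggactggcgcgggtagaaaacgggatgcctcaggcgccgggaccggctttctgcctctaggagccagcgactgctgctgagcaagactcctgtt
The palindrome in Sgk1 reads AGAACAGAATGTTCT and begins 189 bases before that start site. These matches describe letters in a window, and no binding was measured.

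Sgk1 (ENSMUSG00000019970; chromosome 10, 21882184 to 21999903, plus strand), a kinase that raises sodium channel activity in epithelia, measured 73.3, 60.4 and 35.0 CPM in agonist libraries, against 89.0, 50.6 and 111 CPM in no-agonist libraries. No-agonist library 2 lay below 2 agonist libraries, and the other no-agonist libraries lay above all 3. The log2 fold change was -0.57 ± 0.36 SE (95% interval -1.41 to 0.27, adjusted p = 0.688). It was -0.82 without no-agonist library 2, the 1 left-out library that brought an unadjusted p under 0.05 (0.0443, adjusted p = 0.610), and -0.31 without no-agonist library 3. Epithelial marker sums were also lower in all 3 agonist libraries, at 5271, 4820 and 3837 CPM, against 6292, 11263 and 8637 CPM in no-agonist libraries. Agonist library 3 was the lowest for both, whereas no-agonist library 2 was highest in these sums and the lowest of its group for Sgk1. All 8 epithelial markers had a fitted change toward lower levels, but 2 of the 8 alone were separated between groups. The part of epithelium in the level of Sgk1 was not tested. Its relative Sgk3 measured 13.6, 15.8 and 17.3 CPM in agonist and 9.81, 13.2 and 19.8 CPM in no-agonist libraries, and Sgk2 had 2 reads. Of 10 kinases and targets 8 were tested, 6 lay higher and 2 lower, and 0 reached an unadjusted p under 0.05. Ndrg1, a substrate of the kinase, had the smallest p (adjusted p = 0.763), followed by Scnn1a and Rictor. Ndrg1 measured 324 CPM in no-agonist library 3, against 57.8 to 95 CPM in agonist libraries. The groups nevertheless overlapped for Ndrg1, as for every tested gene of that list.

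Per1 (ENSMUSG00000020893; chromosome 11, 69095217 to 69109960, plus strand), a repressor of the circadian clock that steroids and stress also induce, measured 51.2, 21.1 and 44.5 CPM in agonist libraries, against 36.4, 27.2 and 41.1 CPM in no-agonist libraries. The highest and the lowest value both came from the agonist group. Agonist over no agonist, the log2 fold change was 0.16 ± 0.34 SE (95% interval -0.63 to 0.95, adjusted p = 0.932), and -0.08 without agonist library 1. Tissue was taken in the same evening hour from both groups. Even so, other clock genes differed between libraries of 1 group. Dbp, a direct output of the clock, measured 112, 19.3 and 58.5 CPM in agonist and 16.5, 22.7 and 73.3 CPM in no-agonist libraries, so that agonist libraries 1 and 3 and no-agonist library 3 stood above the rest. Those same 3 libraries were the highest for Per1. Per2, the partner of Per1, measured 54.4, 20.7 and 82.3 CPM in agonist and 32.1, 40.7 and 54.9 CPM in no-agonist libraries. Over the 6 libraries 6 of 18 clock genes had a Pearson r with Per1 above 0.8, where 5.80% of other tested genes did, given as a description. Across the 18, r ran from -0.75 (Clock) to 0.91 (Cry2), and 13 were positive. Of the 18, all tested, 12 lay higher and 6 lower with a median log2 fold change of 0.35. Of them 4 reached an unadjusted p under 0.05, all lower, where 5.09% of all tested genes did so toward lower and 4.17% toward higher levels. These 4 were Bhlhe40 (log2 fold change -1.05), Cry1 (-0.77), Bhlhe41 (-1.50) and Npas2 (-0.87), and the smallest adjusted p among them was 0.483. The immediate early genes, among them Fos at 380, 14.8 and 70.6 CPM in agonist and 26.7, 38.9 and 673 CPM in no-agonist libraries, were highest in 2 of the 3 libraries with high Per1, and their part in its level was not tested. Of those 8, all tested, 0 reached an unadjusted p under 0.05, and the smallest p belonged to Nr4a1, Junb and Atf3. Without agonist library 1 and no-agonist library 3 together, a setting chosen after the data were seen, the log2 fold change of Per1 was 0.05 and that of Lrp2 5.40, and Lrp2 was again the 1 gene of the 8 at an unadjusted p under 0.05.

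**Figure D4:**
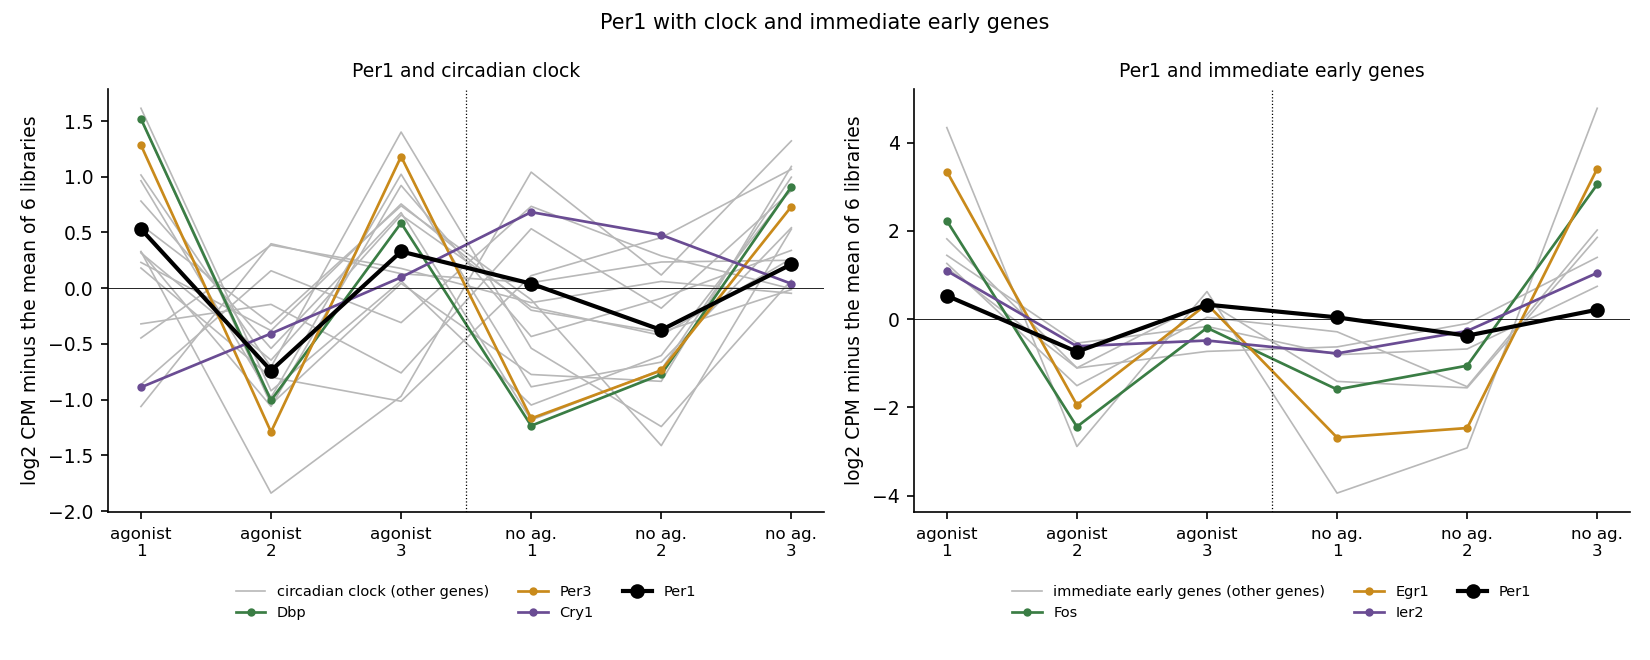
Log2 CPM minus the gene's mean over 6 libraries (y axis) by library (x axis; agonist left of the dotted line, no agonist right) for Per1 (black) with 18 clock genes (left panel) and 8 immediate early genes (right panel). Per1, Dbp and Per3 are high in agonist libraries 1 and 3 and no-agonist library 3, and Fos and Egr1 are highest in agonist library 1 and no-agonist library 3.

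Zbtb16 (ENSMUSG00000066687; chromosome 9, 48654297 to 48836222, minus strand), the zinc finger factor PLZF that progestins induce in human endometrial stroma, measured 6.34, 2.58 and 4.54 CPM in agonist libraries, against 5.89, 3.39 and 7.62 CPM in no-agonist libraries. Agonist library 2 and no-agonist library 2 were the lowest, and the groups overlapped. The log2 fold change was -0.33 ± 0.47 SE (95% interval -1.43 to 0.77, adjusted p = 0.888). It was -0.05 without agonist library 2, -0.05 without no-agonist library 3, -0.65 without agonist library 1 and -0.59 without no-agonist library 2. The 8 smooth muscle markers, none at 0, summed to 11826, 2937 and 3615 CPM in agonist and 8032, 7590 and 19261 CPM in no-agonist libraries. Over the 6 libraries 5 of the 8 had a Pearson r with Zbtb16 above 0.8, where 6.57% of other tested genes did, and the part of muscle in the Zbtb16 level was not tested. Of 6 genes related to Zbtb16 or binding its protein, all tested, 3 lay higher and 3 lower. Zbtb7a was the 1 at an unadjusted p under 0.05, at 87.9, 58.0 and 54.0 CPM in agonist and 87.9, 97.6 and 107 CPM in no-agonist libraries (adjusted p = 0.533), followed by Zbtb20 and Hdac4. Over all tested genes 9.26% reached such a p in either direction.

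Genes listed from outside knowledge as responding through the receptors' shared element gave no common direction. Their windows were not examined individually for that element. Of 17 listed, all tested, 8 lay higher and 9 lower, and 3 reached an unadjusted p under 0.05: the metallothioneins Mt1 and Mt2 toward higher and Nfkbia, the NF-kappaB inhibitor, toward lower levels, with log2 fold changes of 0.95, 1.48 and -1.08. Over all tested genes 4.17% reached such a p toward higher and 5.09% toward lower levels. Tsc22d3 (GILZ), the most used readout of glucocorticoid action, measured 76.0, 40.3 and 147 CPM in agonist and 46.9, 35.8 and 71.8 CPM in no-agonist libraries (adjusted p = 0.676). Of 17 other genes listed as responsive to progesterone in mouse uterus 16 were tested, 10 lay higher and 6 lower. Among them 5 of the higher and 1 of the lower reached an unadjusted p under 0.05, where 4.17% and 5.09% of all genes did, with 0 past the adjusted threshold. The lists were not tested against each other. Several of the 5 were known from an earlier analysis of these data, so their number is not independent support. The retinoic acid-degrading enzyme Cyp26a1 measured 3.45, 4.69 and 5.77 CPM in agonist and 1.21, 0.0870 and 0.184 CPM in no-agonist libraries (log2 fold change 3.17 ± 0.83, adjusted p = 0.329). Sox17 measured 162, 151 and 229 CPM in agonist and 104, 123 and 78.6 CPM in no-agonist libraries, and Alox15 295, 236 and 275 CPM in agonist and 181, 66.6 and 132 CPM in no-agonist libraries. The hedgehog ligand Ihh measured 3.77, 27.9 and 18.9 CPM in agonist and 7.70, 1.91 and 0.551 CPM in no-agonist libraries, so agonist library 1 overlapped. The fifth was Ptch1, the receptor of Ihh and itself a hedgehog target, at 30.1, 44.2 and 60.4 CPM in agonist and 30.4, 21.8 and 26.5 CPM in no-agonist libraries. Muc1, a surface mucin that estrogen raises and progesterone opposes in mouse uterus, was the 1 lower, at 574, 321 and 186 CPM in agonist and 859, 730 and 809 CPM in no-agonist libraries. Areg, the growth factor induced by progesterone in luminal epithelium, had 0, 0 and 0 reads in agonist libraries and 3, 0 and 2 reads in no-agonist libraries.

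**Figure D5:**
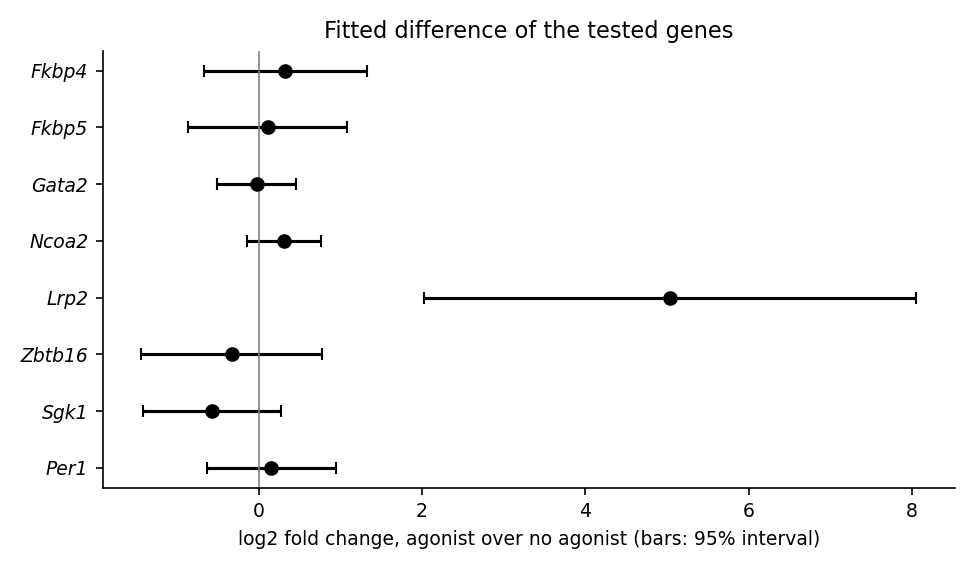
Fitted log2 fold change of agonist over no agonist (points) with 95% intervals (bars) for the 8 tested genes. The interval lies to the right of 0 for Lrp2 alone (2.02 to 8.05), before any adjustment for the number of genes tested, and that of Gata2 is -0.50 to 0.46.

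Patterns over the 6 libraries were compared with 12874 other genes of at least 5 CPM by Pearson r of log2 CPM. With 6 points that share their scaling, many genes reach a high r, so the values only describe these libraries. For Fkbp4 the most alike was Cct6a, a subunit of the TRiC chaperonin (r = 0.997), at 172, 244 and 208 CPM in agonist and 191, 236 and 134 CPM in no-agonist libraries, then Ptcd2 (0.989). For Lrp2 they were 5033406O09Rik (0.992), at 12.4, 27.6 and 13.5 CPM in agonist and 6.49, 8.61 and 7.53 CPM in no-agonist libraries, and Tmeff1 (0.989). Zbtb16 was nearest to Plcb1 (0.997) and Mrvi1 (0.991), the second at 324, 100.8 and 228 CPM in agonist and 299, 173 and 444 CPM in no-agonist libraries. Sgk1 was nearest to Glrx (0.995) and Suox (0.992), Per1 to Zfp810 (0.994) and Dst (0.991), and Ncoa2 to Mynn (0.999) and Anxa9 (0.994). Gata2 was nearest to Ahdc1 (0.987) and Tctn1 (0.984), and Fkbp5 to Zfp91 (0.981) and C1qtnf6 (0.977).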

How the data were processed

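Endometrial RNA of 6 mouse libraries, 3 with and 3 without agonist, was read from 1 end on Ion Proton instruments, per the labels' protocols. The authors deposited whole-number read counts per gene symbol, placed on GRCm38 and counted with HTSeq 0.6.1 per the submitters' processing notes. No source used here gives the aligner, annotation, strand setting or filters.

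Columns were matched to samples by title. Genes were kept by filterByExpr (10 counts scaled to depth in 3 libraries, 15 in all), and the groups were compared by edgeR's quasi-likelihood test with TMM factors and no covariates (R 4.3.3, edgeR 4.0.16, limma 3.58.1, DESeq2 1.42.0). Adjusted p-values are Benjamini-Hochberg over all 16581 genes tested. The procedure was tried on simulated data, which is not used here as evidence of its power in these libraries. List genes missing under their symbol were looked up through RefSeq synonyms. Named genes are the 10 genes, 16 further fixed genes, up to 3 of each list by smallest p, and the 2 most alike in pattern. Some of these are not reported here. Other named genes were chosen after their values were seen. The members and lists were chosen with earlier results of these data known. The E-box motif was added later. Alternatives were other scalings, filters, tests and left-out libraries. Intervals and floors cover counting error only.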

Additional observations from a re-analysis of the deposited data

How the results depend on the processing

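No paired analysis was possible because the labels give the groups no shared replicate numbers. Of 128 refits of single genes, 119 kept direction and side of the threshold, 2 brought Lrp2 past it (DESeq2 and the likelihood ratio test, each 1 gene of the 8) and 7 turned direction. These were Gata2 at 0.026 (upper-quartile factors), 0.14 (library totals alone), 0.12 without agonist library 2 and 0.01 without no-agonist library 1, Fkbp5 at -0.025 (limma-voom) and -0.43 without agonist library 2, and Per1 at -0.082 without agonist library 1. With 1 library left out, Gata2 ranged from -0.096 to 0.12, Fkbp5 from -0.43 to 0.45 and Per1 from -0.082 to 0.46. The Fkbp5 to Fkbp4 log2 ratio difference ranged from -0.89 to 0.040 with 1 library left out. Genes past the adjusted threshold, 0 in either direction, numbered 141 higher and 253 lower with DESeq2, 104 and 164 with the likelihood ratio test, 8 and 28 without a filter, and 1 higher without the 2 libraries highest in immediate early genes. With 1 library left out they ranged from 0 to 0 higher and from 0 to 1 lower. At an unadjusted p under 0.05 there were 1192 higher and 520 lower with library totals alone, which took the median over all genes to 0.18 on the log2 scale, beside 0.02, and 1054 higher without a filter; with 1 library left out, 535 to 1093 lower. Of the 8 genes 0 to 1 were then lower. With library totals alone the groups did not overlap for 2031 genes higher and 722 lower. The cause of these shifts was not tested. Depth limits Il13ra2 and Calca, and 3 libraries a group limit the rest.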
